A study of Mus musculus with 9 samples.

Results

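Photoreceptor fate transcription factors are the DNA-binding proteins that commit a retinal precursor to the photoreceptor lineage and then separate rods from cones. The 8 genes followed here were Otx2, Crx, Prdm1, Nrl, Nr2e3, Rorb, Casz1 and Esrrb, chosen by symbol in the platform annotation. Of these, 7 were among the 24259 genes measured, and Nr2e3 was not analysed here. The samples were 9 arrays of whole mouse retina at postnatal day 8, on a mixed C57Bl/6x129SvJ strain. They formed 3 groups of 3 arrays: wild type (WT), retinas lacking Rb (Rb KO), and retinas lacking Rb together with p107 (Rb/p107 DKO, shortened to DKO). Rb, encoded by Rb1, and p107, encoded by Rbl1, are pocket proteins that hold back E2F factors and with them the cell cycle. The alleles, the driver of the deletion and the cells in which it took place are not given in the sources used here. Each array is a biological replicate according to the design text of the series.

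In the developing retina Otx2 turns precursors toward photoreceptor and bipolar fates and switches on its relative Crx, which drives photoreceptor genes. Prdm1, also called Blimp1, holds down bipolar genes in young photoreceptors, and the nuclear receptor Rorb acts upstream of Nrl and Prdm1. Nrl directs precursors to become rods and works with its target Nr2e3, which represses cone genes. The zinc-finger protein Casz1 and the nuclear receptor Esrrb act in cells that take or hold the rod fate.

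The promoters of Crx, Nrl and Casz1 are shown because these 3 genes were lower in each mutant than in WT and lower in DKO than in Rb KO. Each line gives the 250 bases before a RefSeq transcription start on build GRCm38.p6, read 5′ to 3′ on the gene's strand, so that the last base is position -1. The Crx window is chr7:15879956-15880205 on the minus strand, the Nrl window chr14:55524253-55524502 on the minus strand and the first Casz1 window chr4:148889097-148889346 on the plus strand. Capitals mark TAATCC, the homeodomain motif of Otx2 and Crx (GGATTA when read from the other strand), TGCTGA, the core of the Maf and Nrl recognition element (TCAGCA on the other strand), and AGGTCA, the core motif of nuclear receptors such as Rorb and Esrrb.
Crx: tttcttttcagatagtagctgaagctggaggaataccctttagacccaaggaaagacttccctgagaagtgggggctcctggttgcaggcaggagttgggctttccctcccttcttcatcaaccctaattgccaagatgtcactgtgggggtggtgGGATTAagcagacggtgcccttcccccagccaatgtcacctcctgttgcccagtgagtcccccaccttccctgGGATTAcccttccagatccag
Nrl: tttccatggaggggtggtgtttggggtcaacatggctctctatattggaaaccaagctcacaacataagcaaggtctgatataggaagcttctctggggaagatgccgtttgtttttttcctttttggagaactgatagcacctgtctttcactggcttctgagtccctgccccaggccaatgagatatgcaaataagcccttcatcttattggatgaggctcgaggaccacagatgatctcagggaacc
Casz1: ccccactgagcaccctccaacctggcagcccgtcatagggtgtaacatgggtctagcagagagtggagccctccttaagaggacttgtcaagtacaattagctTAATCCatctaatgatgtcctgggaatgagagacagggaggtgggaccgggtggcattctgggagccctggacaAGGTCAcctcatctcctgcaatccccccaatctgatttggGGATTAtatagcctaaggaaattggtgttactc

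Crx held GGATTA at positions -94 and -21. Casz1 held TAATCC at -147, AGGTCA at -73 and GGATTA at -33. The Nrl window held none of these letters, and neither did the other Casz1 window, which is not shown. The search covered both strands of windows of 300 bases, from 250 before to 50 after the start, and 7.06% of the 32851 such windows of all genes held TAATCC. A smaller share of all windows, 0.359%, held it at 2 or more places, as these Crx and Casz1 windows did. TGCTGA was in 19.5% of all windows and AGGTCA in 16.3%. The 8 factors had 14 windows in the table, some of them overlapping, and TAATCC was in 3 of them, the third being 1 of the 4 Otx2 windows. TGCTGA was in 3 windows, 2 of Otx2 and 1 of Rorb. Of the E2F motifs, TTCCCGC was in 4.6% of all windows, and TTGGCGC in 2.45% and TTCGCGC in 1.59%, and each was in 0 of the 14. A match is a stretch of letters and not a measured binding site, and no enrichment was tested.

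Across the 9 arrays between 27.2% and 36.4% of genes lay above background, defined as the 95th percentile of the array's negative control probe sets, which was 7.94 to 8.50 on the log2 intensity scale. Rb1, the targeted gene, ranged from 10.005 to 10.46 in the WT arrays, from 9.85 to 10.02 in Rb KO arrays and from 9.74 to 10.002 in DKO arrays. Against WT its log2 fold change in Rb KO was -0.31 (adjusted p = 0.0793), and that in DKO was -0.36 (adjusted p = 0.0423). With the mean of all its probe sets the values turned to 0.68 and 0.74, so this gene did not check the genotype labels, and Rbl1 was not analysed here. DKO replicate 2 stood apart in lens genes, with a mean of 9.03 over 10 lens markers against 7.45 to 7.58 in the other DKO arrays. Leaving that array out changed no call for a fate factor.

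Against WT, Rb KO retinas held more Otx2, Prdm1 and Rorb and less Crx, Nrl, Casz1 and Esrrb RNA. In DKO retinas Rorb was higher, while Crx, Nrl, Casz1 and Esrrb were lower than in WT. DKO retinas had less Otx2, Prdm1, Crx, Nrl and Casz1 than Rb KO retinas. In Rb KO 3 of the 7 measured factors were called higher and 4 lower, where 24.4% of all genes were called, 10.2% higher and 14.3% lower, at an adjusted p under 0.05 in limma. In DKO against WT 1 was called higher and 4 lower, against 29.3% of all genes called, 12.2% higher and 17.1% lower. Between DKO and Rb KO 0 were called higher and 5 lower, where 2.54% of all genes were called, 1.34% higher and 1.21% lower. At an unadjusted p under 0.05 that count of higher factors was also 0. A test for any difference among the 3 groups called 7 of 7 (adjusted p 1.83e-05 to 0.00652), as it did 28.7% of all genes. The median log2 fold change of the factors was -0.46, -1.06 and -0.60 in the 3 comparisons, beside -0.05, -0.06 and -0.0025 over all genes.

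**Figure D1:**
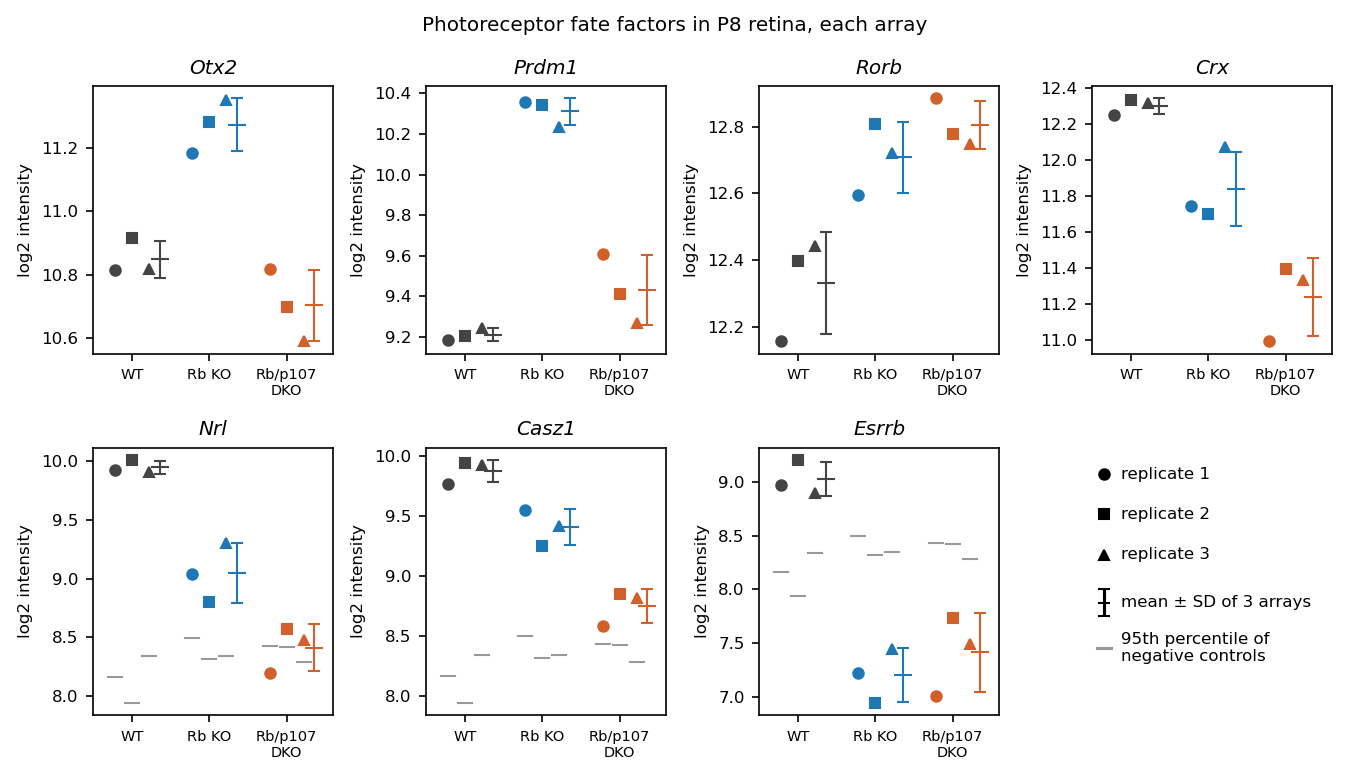
Log2 intensity (vertical axis) of the 7 measured factors in each of the 9 arrays, by group. Symbols are replicates, bars the mean ± SD of 3 arrays, and grey ticks, drawn for Nrl, Casz1 and Esrrb, the 95th percentile of that array's negative controls. Prdm1 is highest in Rb KO, with DKO between and WT lowest, and the Esrrb points of the 6 mutant arrays lie below their ticks.

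Otx2, the homeodomain factor at the head of the pathway, read 10.81, 10.92 and 10.82 in WT arrays, 11.19, 11.28 and 11.35 in Rb KO arrays and 10.82, 10.70 and 10.59 in DKO arrays. The Rb KO arrays were the highest and did not overlap with either other group, while the WT and DKO arrays overlapped. Otx2 rose 1.34-fold in Rb KO (log2 fold change 0.42, SE 0.0817, adjusted p = 0.0035). In DKO its log2 fold change against WT was -0.15 (95% confidence interval -0.33 to 0.03, adjusted p = 0.217). Between the mutants it was 1.48-fold lower in DKO (log2 fold change -0.57, adjusted p = 0.00469).

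Otx2 is also made by bipolar cells and by the pigment epithelium that lies against the retina. Of 14 measured bipolar markers 13 were lower in Rb KO and 12 lower in DKO, 1 of them in each mutant not above background in either group. The mean level of the bipolar markers ran from 9.81 to 9.94 in WT arrays, 8.25 to 8.96 in Rb KO and 8.22 to 8.96 in DKO. Pigment epithelium markers were lower for 13 of 18 measured genes in each mutant, 5 of them not above background in either group, with array means of 7.59 to 7.84 in WT arrays, 6.91 to 7.02 in Rb KO and 6.80 to 6.93 in DKO. Its secreted carrier Ttr and its melanosome protein Pmel were above background in the 3 WT arrays and in none of the mutant arrays. The part of these cells in the Otx2 values was not tested. In whole tissue, fewer cells of a type and less RNA per cell cannot be told apart.

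Prdm1, the repressor of bipolar genes, read 9.18, 9.20 and 9.24 in WT. It read 10.36, 10.34 and 10.24 in Rb KO arrays and 9.61, 9.41 and 9.27 in DKO arrays. No group overlapped with another, with Rb KO highest, DKO between and WT lowest. The rise in Rb KO was 2.15-fold (log2 fold change 1.10, SE 0.09, adjusted p = 1.29e-05), and 369 of all genes had a larger positive log2 fold change. The DKO value against WT was 0.22 (95% confidence interval 0.02 to 0.42, adjusted p = 0.0933) and was called without DKO replicate 3 (adjusted p = 0.0413). DKO was 1.84-fold below Rb KO (log2 fold change -0.88, adjusted p = 4.68e-04), a fall that 80 genes exceeded.

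Rorb, a retinoid-related orphan nuclear receptor, read 12.16, 12.40 and 12.44 in WT. Its readings were 12.59, 12.81 and 12.72 in Rb KO arrays and 12.89, 12.78 and 12.75 in DKO arrays. The 6 mutant arrays lay above the WT arrays, and the mutants overlapped with each other. Rorb was 1.30-fold higher in Rb KO (log2 fold change 0.38, SE 0.0938, adjusted p = 0.014) and 1.39-fold higher in DKO (0.47, adjusted p = 0.00332). The mutants differed by 0.10 (95% confidence interval -0.11 to 0.30, adjusted p = 0.796). The Rb KO call was lost without WT replicate 1 (adjusted p = 0.0515), without Rb KO replicate 2 (0.0627) and with a covariate for how well each array separated its controls (0.0637). These readings come from the brighter of 2 Rorb probe sets, whose identifier marks it as unmapped. The other probe set read 11.64, 11.87 and 12.04 in WT arrays, 12.17, 12.59 and 12.51 in Rb KO arrays and 12.68, 12.60 and 12.57 in DKO arrays. Its log2 fold changes were 0.58 (adjusted p = 0.015) and 0.77 (adjusted p = 0.0025) against WT and 0.19 (adjusted p = 0.733) between the mutants, in a fit over all probe sets.

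Crx, the photoreceptor homeodomain factor whose promoter is printed above with its pair of GGATTA matches, read 12.25, 12.33 and 12.31 in WT. Its levels were 11.74, 11.70 and 12.07 in Rb KO arrays and 10.99, 11.40 and 11.33 in DKO arrays. The groups were ordered WT, Rb KO and DKO from high to low without overlap. Crx fell in Rb KO (log2 fold change -0.46, SE 0.123, adjusted p = 0.0196, 1.37-fold) and 2.08-fold in DKO (-1.06, SE 0.123, adjusted p = 1.12e-04). The difference between the mutants was -0.60 (adjusted p = 0.0297). The Rb KO call was lost after renewed quantile normalization (adjusted p = 0.0645), with the control covariate (0.0953) and without WT replicate 3 (0.0507), and when replicate 1 of Rb KO (0.0755) or its replicate 2 (0.0829) was left out.

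Nrl is the leucine-zipper factor that sets rod identity. Its readings were 9.92, 10.01 and 9.90 in WT arrays, 9.04, 8.80 and 9.30 in Rb KO arrays and 8.19, 8.57 and 8.48 in DKO arrays. The order was again WT, Rb KO, DKO with no overlap, and DKO replicate 1 was not above background. Nrl fell 1.87-fold in Rb KO (log2 fold change -0.90, SE 0.13, adjusted p = 6.22e-04) and 2.89-fold in DKO (-1.53, SE 0.13, adjusted p = 1.26e-05). Of all genes 89 fell more than Nrl in DKO against WT. Between the mutants the log2 fold change was -0.63 (adjusted p = 0.0304).

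Crx and Nrl lost the call between the mutants under the same 7 of 17 alternatives. These were median centring (adjusted p = 0.0538 for Crx and 0.0524 for Nrl), a fit to the mutants alone (0.0516 and 0.0525) and fits without WT replicate 3 (0.0505 and 0.0512), Rb KO replicate 1 (0.0758 and 0.105), Rb KO replicate 3 (0.105 and 0.103), DKO replicate 1 (0.106 and 0.12) or DKO replicate 3 (0.0806 and 0.0964). In the fit over all probe sets, which was added after the data were seen, neither was called (adjusted p = 0.0647 for each). Otx2, Prdm1 and Casz1 were called between the mutants under each of the 17 alternatives and in that fit.

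Casz1, the zinc-finger factor, read 9.77, 9.94 and 9.92 in WT arrays, 9.55, 9.25 and 9.42 in Rb KO arrays and 8.59, 8.85 and 8.82 in DKO arrays. Here too WT was highest, Rb KO between and DKO lowest, with no overlap. The fall was 1.38-fold in Rb KO (log2 fold change -0.47, SE 0.101, adjusted p = 0.00675) and 2.18-fold in DKO (-1.12, SE 0.101, adjusted p = 1.87e-05). DKO lay 1.58-fold below Rb KO (-0.66, adjusted p = 0.00695).

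Esrrb, the estrogen-related receptor of rods, read 8.97, 9.21 and 8.90 in WT. In the mutants it read 7.22, 6.94 and 7.44 (Rb KO) and 7.01, 7.73 and 7.49 (DKO). The WT arrays were above background and no mutant array was, so the folds are bounds, set by the background of the mutant arrays. Esrrb was at least 1.56-fold lower in Rb KO (measured log2 fold change -1.82, SE 0.178, adjusted p = 4.76e-05). In DKO it was at least 1.57-fold lower (measured -1.61, SE 0.178, adjusted p = 8.05e-05). The mutant arrays overlapped (difference 0.21, 95% confidence interval -0.18 to 0.60, adjusted p = 0.742) and were below background in each group.

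**Figure D2:**
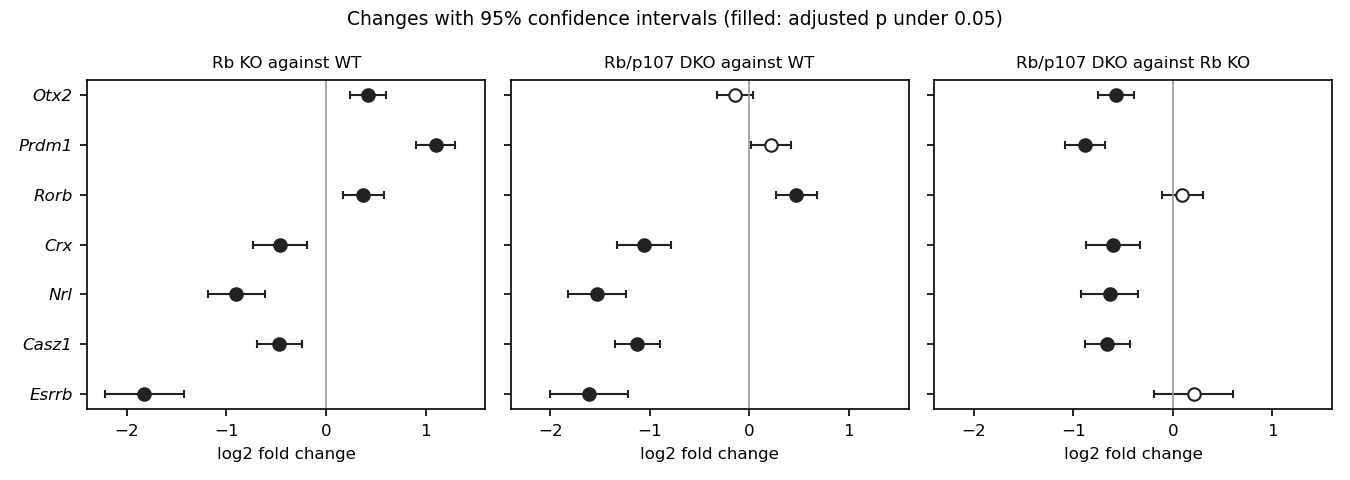
Log2 fold change (horizontal axis) of each factor in the 3 comparisons, with the 95% confidence interval from limma. Filled points had an adjusted p under 0.05. In Rb KO the factors lie on either side of 0, and between DKO and Rb KO the 5 filled points lie below 0, with Prdm1 lowest at -0.88.

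Whether factors changed by unequal amounts was asked from the log2 difference between a pair within each array, which leaves out any shift common to the array. With 3 arrays against 3 the exact two-sided permutation test cannot go below p = 0.1. Of 21 pairs, the groups did not overlap for 19 in Rb KO against WT, for 19 in DKO against WT and for 11 between the mutants. Where a factor rose and its partner fell, each without overlap, the pair could not overlap, so its outcome was fixed by the single factors. In Rb KO against WT this held for every higher factor paired with a lower one. In DKO against WT it held for Prdm1 or Rorb paired with Crx, Nrl, Casz1 or Esrrb. The counts include 6 pairs with Esrrb, which was not above background in any mutant array. Over the 15 pairs without Esrrb the counts were 13, 14 and 6. The share over pairs of all genes was not computed, so the counts do not show a trait particular to these factors. The smallest Benjamini-Hochberg value over the 63 tests was 0.129, so no pair passed the correction.

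Otx2 minus Crx was -1.43, -1.41 and -1.497 in WT arrays, -0.56, -0.42 and -0.72 in Rb KO arrays and -0.18, -0.70 and -0.74 in DKO arrays. The mutant arrays were all above the WT arrays, by a mean of 0.88 in Rb KO and 0.91 in DKO (exact permutation p = 0.1 for each). For Rb KO this was fixed by the single factors, since Otx2 rose and Crx fell, each without overlap. The mutants overlapped, with a difference of 0.03 (exact permutation p = 0.9).

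Otx2 minus Prdm1 was 1.63, 1.71 and 1.57 in WT arrays, 0.83, 0.94 and 1.12 in Rb KO arrays and 1.21, 1.29 and 1.33 in DKO arrays. WT was highest and Rb KO lowest, with changes of -0.68 in Rb KO and -0.37 in DKO against WT and 0.31 between the mutants (exact permutation p = 0.1 for each). The 3 groups did not overlap. Prdm1 thus stood higher relative to Otx2 in the mutants than in WT. Crx minus Nrl was 2.32, 2.32 and 2.41 in WT arrays, 2.71, 2.901 and 2.77 in Rb KO arrays and 2.80, 2.83 and 2.86 in DKO arrays. The mutant arrays were above the WT arrays, by 0.44 in Rb KO and 0.48 in DKO (exact permutation p = 0.1 for each). Nrl thus read lower relative to Crx, though no pair passed the correction. In DKO replicate 1 Nrl was not above background, and in the other DKO arrays it lay close above it. The mutants overlapped (0.04, exact permutation p = 0.6).

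For the upstream factors Otx2 and Rorb the DKO arrays stood apart. Otx2 minus Rorb was -1.34, -1.48 and -1.62 in WT arrays, -1.41, -1.53 and -1.37 in Rb KO arrays and -2.07, -2.08 and -2.16 in DKO arrays. WT and Rb KO overlapped (change 0.05, exact permutation p = 0.7), and the DKO arrays were below them all, by 0.62 against WT and 0.67 against Rb KO (exact permutation p = 0.1 for each).

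**Figure D3:**
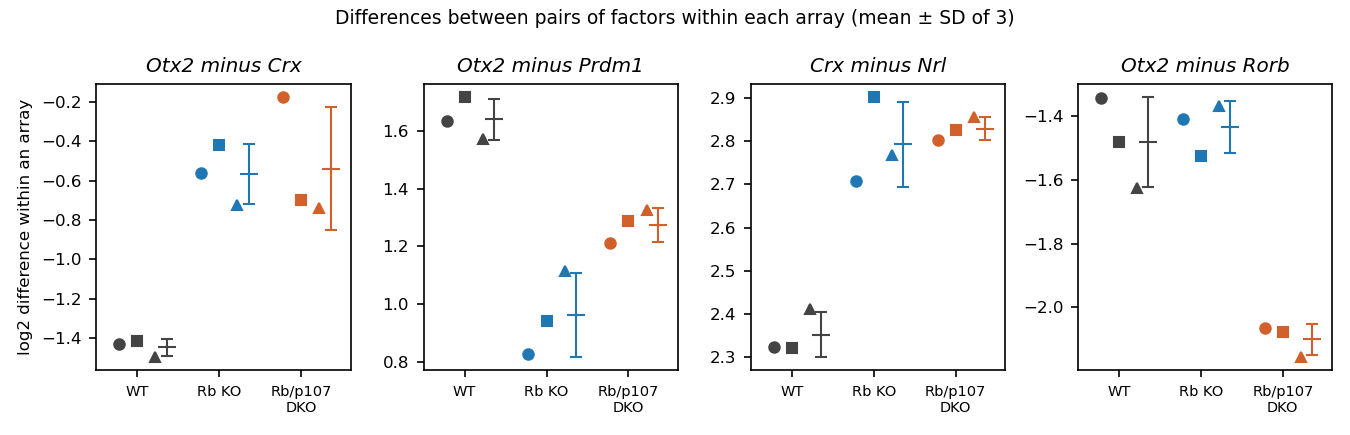
Log2 difference between 2 factors within each array (vertical axis), by group, with the mean ± SD of 3 arrays. Otx2 minus Crx is higher in the 6 mutant arrays than in WT arrays, and Otx2 minus Rorb is lowest in DKO, at -2.07 to -2.16. The height of a panel compares groups and not the levels of the 2 genes.

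Within a mutant group the factors did not order the arrays alike. Esrrb, not above background in the mutants, is left out here. Rb KO replicate 3 was the highest of its group for Otx2, Crx and Nrl, the lowest for Prdm1 and between the others for Rorb and Casz1. DKO replicate 1 was the lowest of its group for Crx, Nrl and Casz1 and the highest for Otx2, Prdm1 and Rorb. Otx2 thus went with Crx and Nrl in Rb KO replicate 3 and against them in DKO replicate 1. The mean of 31 measured rod genes split these arrays as Crx and Nrl did, at 9.84, 9.61 and 10.39 in Rb KO arrays and 9.46, 10.25 and 10.04 in DKO arrays, beside 11.36 to 11.45 in WT. Mean levels of 8 cycling-cell markers were 10.44, 10.59 and 10.17 in Rb KO arrays and 10.76, 10.50 and 10.63 in DKO arrays, beside 6.92 to 7.21 in WT. Rb KO replicate 3 was thus lowest and DKO replicate 1 highest for the cycling markers within their groups. The part of this makeup in the factors' values was not tested.

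The genes that Crx and Nrl drive in rods were lower in the mutants. Of 38 listed, 31 were measured, and 31 of 31 fell in each mutant against WT, with medians of -1.31 in Rb KO and -1.49 in DKO. For this list and those below, the shares of all genes called against WT were 24.4% in Rb KO and 29.3% in DKO. Guca1b, a calcium sensor of guanylate cyclase, was at least 3.15-fold lower in Rb KO (adjusted p = 2.85e-05) and at least 3.16-fold lower in DKO (adjusted p = 8.07e-05). Prom1, a protein of the disc membranes, read 11.77, 11.73 and 11.84 in WT arrays, 10.77, 10.81 and 10.999 in Rb KO arrays and 10.03, 10.48 and 10.34 in DKO arrays. Prom1 fell by 1.501 on the log2 scale in DKO against WT (adjusted p = 4.96e-06). Between the mutants 2.54% of all genes were called. There 2 rod genes were called lower, Prom1 (-0.58, adjusted p = 0.0269) and Impg2, a protein of the matrix between photoreceptors (-0.63, adjusted p = 0.0294). None was called higher there, with 3 higher at an unadjusted p under 0.05, and the list's median was -0.12. Leaving out array 1 or array 3 of either mutant took these 2 calls to 0, and leaving out array 2 of Rb KO left 1.

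Cone genes, some of which Nrl and Nr2e3 hold down in rods, were mostly lower as well. Of 14 measured, 9 were lower and 2 higher in Rb KO (median -0.81), and 13 lower and 1 higher in DKO (median -1.23). Of the 13 lower in DKO, 1 was not above background in either group. Opn1mw, the middle-wavelength opsin, was at least 5.73-fold lower in Rb KO (adjusted p = 3.38e-05). Opn1sw, the short-wavelength opsin, fell by 1.40 in Rb KO (adjusted p = 8.29e-05) and by 1.502 in DKO (adjusted p = 3.75e-05) on the log2 scale. The higher genes in Rb KO were Fabp7 (1.63, adjusted p = 5.45e-06), a fatty acid carrier that progenitors and glia also make, and Otop3, a proton channel (0.47, adjusted p = 0.0192). Leaving out array 3 of WT, or array 1 or 3 of Rb KO, took these 2 calls to 1.

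Between the mutants 4 of the 14 cone genes were lower in DKO and 0 higher, with 1 higher at an unadjusted p under 0.05. The share of all genes called there was 2.54%. Otop3 read 8.99, 8.73 and 9.08 in Rb KO arrays and 7.67, 7.77 and 7.72 in DKO arrays, where it was not above background. The DKO level was at least 1.47-fold lower (adjusted p = 5.04e-04). Gnb3, the beta subunit of cone transducin, read 10.82, 10.55 and 11.05 in Rb KO arrays and 9.64, 10.22 and 10.04 in DKO arrays. The groups did not overlap, and Gnb3 was lower by 0.84 on the log2 scale (log2 fold change -0.84, adjusted p = 0.0178). Fabp7 was lower in DKO too (-1.07, adjusted p = 9.03e-04). The call not named here was on a gene that was not above background in any array of either mutant. Leaving out array 1 or array 3 of either mutant took the 4 calls to 2.

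The bipolar and amacrine genes that Otx2 and Prdm1 are known to regulate in precursors moved in either direction. Of 15 measured, 3 rose and 8 fell in Rb KO (median -0.60), and 4 rose and 8 fell in DKO (median -0.50). Foxn4, a factor of amacrine and horizontal precursors, was below background in WT and at least 2.12-fold higher in Rb KO (adjusted p = 1.88e-05) and at least 2.85-fold higher in DKO (adjusted p = 2.44e-06). Prdm8, a factor that rod bipolar cells need, rose by 0.56 on the log2 scale in Rb KO (adjusted p = 5.26e-04) and by 0.82 in DKO (adjusted p = 3.28e-05). Prkca, the protein kinase that marks rod bipolar cells, read 10.83, 11.10 and 11.09 in WT arrays, 9.58, 9.46 and 10.01 in Rb KO arrays and 9.27, 9.82 and 9.86 in DKO arrays. It fell by 1.35 on the log2 scale in DKO (adjusted p = 2.3e-04). Between the mutants limma called none of the 15, where 2.54% of all genes were called. At an unadjusted p under 0.05, 4 were higher and 1 lower. Tfap2a, an amacrine factor, was nearest among the higher genes (0.43, adjusted p = 0.0799).

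Among 25 further regulators of photoreceptor fate 9 were higher and 6 lower in each mutant against WT, with medians of 0.08 and 0.20. Sox11, a factor of young neurons, read 8.27, 8.43 and 8.25 in WT arrays, 10.91, 11.07 and 10.19 in Rb KO arrays and 11.46, 11.42 and 11.49 in DKO arrays. The 3 groups did not overlap, and Sox11 rose on the log2 scale by 2.40 in Rb KO (adjusted p = 6.94e-06) and by 3.14 in DKO (adjusted p = 6.34e-07). Its relative Sox4 rose by 1.12 (adjusted p = 1.62e-05) and 1.18 (adjusted p = 7.59e-06). Rora, a paralogue of Rorb, went the other way. It read 11.10, 11.35 and 11.42 in WT arrays, 10.15, 10.10 and 10.49 in Rb KO arrays and 10.02, 10.47 and 10.22 in DKO arrays, with log2 fold changes of -1.04 (adjusted p = 3.53e-04) and -1.05 (adjusted p = 2.52e-04). Between the mutants 1 of the 25 was called, where 2.54% of all genes were called. It was the clock factor Bhlhe40 (0.90, adjusted p = 0.0124), at least 1.24-fold higher in DKO since it was not above background in Rb KO. That call was lost without Rb KO replicate 1.

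**Figure D4:**
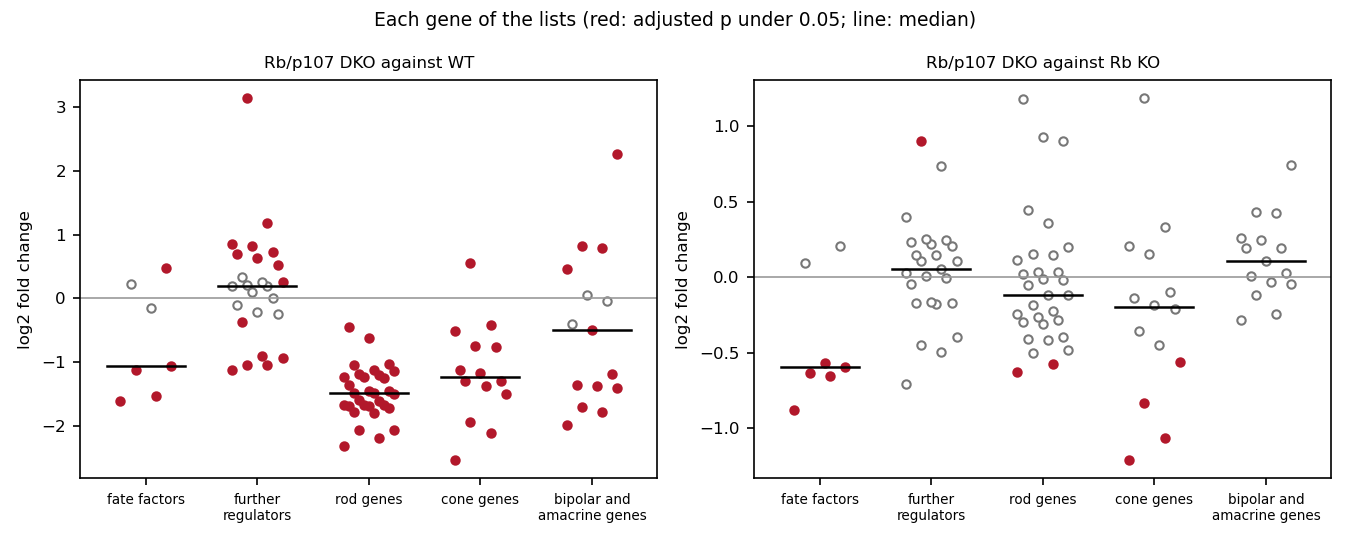
Log2 fold change (vertical axis) of each gene in 5 groups of genes, for DKO against WT (left) and DKO against Rb KO (right). Red points had an adjusted p under 0.05, and lines are medians. The rod genes have a median of -1.49 on the left and -0.12 on the right, while the fate factors have -1.06 and -0.60.

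Markers of other cells moved with the genotype as well. Cycling-cell markers rose for 8 of 8 measured in each mutant, and progenitor markers for 4 of 9, with 1 lower. The Notch target Hes1, a progenitor gene, rose by 0.75 in Rb KO (adjusted p = 5.17e-04) and was lower in DKO than in Rb KO (-0.50, adjusted p = 0.034), as Fabp7 was. Endothelial markers fell for 8 of 10 in each mutant, ganglion cell markers for 9 of 10 in Rb KO and 8 in DKO, with 1 higher in each, and Muller glia markers for 5 of 8, with 1 higher. Amacrine markers fell for 5 of 8 in Rb KO and 4 in DKO, with 2 higher in each, and microglia markers rose for 6 of 10 and 5 of 10. Of these microglia genes 4 in Rb KO and 3 in DKO were not above background in any array of the groups compared, as were 3 of the 8 endothelial genes in each mutant. The same held for 2 of the called amacrine genes in each mutant and for 1 called progenitor gene in DKO. Of 5 horizontal cell markers 1 rose and 1 fell in Rb KO and 2 rose and 1 fell in DKO. In each mutant 1 of these horizontal calls was not above background in either group. Lens markers rose for 5 of 10 in DKO, and none passed in Rb KO, where 0 also had an unadjusted p under 0.05. The ganglion count in Rb KO became 4 when array 1 or 2 of that group was left out. For microglia the Rb KO count became 3 without array 1 or 3 of WT, or array 1 or 2 of Rb KO, and the lens count in DKO became 3 without array 3 of WT.

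Between DKO and Rb KO, where 5 fate factors were lower, 3 marker genes were called, or 2.8% of those measured, near the 2.54% of all genes. Progenitor markers had 2 called lower and horizontal cell markers 1, Septin4. The other marker groups had none called by limma, with 0 to 7 genes higher, the 7 being lens genes, and 0 to 2 lower per group at an unadjusted p under 0.05. The progenitor calls became 1 when array 2 or 3 of either mutant was left out, and the horizontal call was lost without array 1 of either mutant or array 3 of Rb KO. The part of these cells in the factors' differences was not tested.

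The genes whose level was most like each factor over the 9 arrays were sought among 6331 genes above background in at least 3 arrays. The nearest to Otx2 were Gstz1, an enzyme of tyrosine breakdown (Pearson r 0.950), and Chrnb4, a nicotinic receptor subunit (0.945). For Prdm1 they were the membrane protease St14 (0.990) and the peroxisomal oxidase Pipox (0.973), and for Rorb the histone gene activator Npat (0.987) and Zfp764 (0.981). Those nearest to Crx were Agpat3, an enzyme of phospholipid synthesis (0.992), and Wdr60, a dynein chain of cilia (0.991). Nrl had Hs3st3b1, a heparan sulfate enzyme, and Podxl, a sialomucin (0.996 each). Casz1 had Ankrd33b (0.990) and Septin4 (0.989), and Esrrb had the lipid phosphatase Plpp2 (0.997) and the phosphatase Ppm1n (0.995). St14 and Pipox were above background in the Rb KO arrays alone, and Ppm1n in the WT arrays alone, as Esrrb was. These genes passed the filter only through the group where they were high, so their r values largely restate which group that was. The arrays fall into 3 groups that differ in 6962 of all genes, and all r values here are a description of likeness with no test.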

How the data were processed

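RNA of mouse retina was hybridized to an Affymetrix whole-transcript array, 3 arrays per group. Per the submitters' processing notes, the authors summarised probes by RMA into log2 intensities, and the deposited log2 values were used as given. The version of RMA and the build are not given in the sources used here. RMA fits all arrays to 1 distribution, so a shift common to most genes would not be seen.

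The table held 52917 transcript clusters. Those with 1 gene symbol (24646) were kept, and each gene was represented by its brightest probe set (mean of 9 arrays). Groups were compared with limma 3.58.1 in R 4.3.3 (lmFit on group means of all 9 arrays, eBayes without trend). There were 6 residual and 4.69 prior degrees of freedom. Benjamini-Hochberg adjustment ran over 24259 genes, with a call at adjusted p under 0.05. Each SE belongs to the log2 fold change. "At least" folds set readings of a group with no array above background to the background of their array. Only 3 arrays per group limit the precision. On data simulated for Rb KO against WT over 24259 genes, 54% of 0.5 log2 changes and 93% of 1 log2 changes were recovered, with 4 false calls. The simulation changed a far smaller share of genes than the 24.4% called in the data. Its adjusted p threshold was therefore stricter, and these figures do not give the recovery or false calls in the data. Figures used matplotlib 3.10.9. The genes and the gene lists were chosen with earlier results of these data known. Named genes were the factors, Rb1, up to 3 rising and 3 falling called genes per list with the lowest p (up to 2 with the lowest p where none was called), and the 2 genes most correlated with each factor, without olfactory receptors, microRNAs, snoRNAs and predicted genes. Gene lists were described by counts and medians, with no set test. RefSeq promoter windows were matched by symbol for 8 of 8 factors. Replicate numbers did not pair the arrays. Alternatives are given in the closing section.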

Additional observations from a re-analysis of the deposited data

How the results depend on the processing

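The factors' values were recomputed under 17 alternatives. Of 357 changes, 334 kept their direction and call, 22 kept the direction and lost the call, 1 gained it, and 0 reversed. Between the mutants the 5 called factors became 3 under median centring and 3 with the mutants fitted alone, and 3 to 5 when an array was left out. A fit over all 52917 transcript clusters, chosen after seeing the data, also gave 3. The count ran from 5 to 7 for Rb KO and from 5 to 6 for DKO against WT. Over the pathway and marker lists, the 9 genes called between the mutants became 17 with dim genes left out, where fewer genes were tested, and 3 to 13 without an array. The change in Crx minus Nrl in DKO went from 0.48 to 0.43 after renewed quantile normalization. Rb1 reversed to 0.68 in Rb KO and 0.74 in DKO against WT with the mean of its probe sets. The cause of these shifts was not tested. With the replicate block 7, 5 and 5 factors were called and 129, 140 and 8 list genes, in the order Rb KO against WT, DKO against WT and DKO against Rb KO. Deviations of arrays with the same number correlated between -0.162 and 0.145, so the numbers gave no pairing. Probe sets near background, such as Esrrb in the mutants, give only bounds.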
